A study of Arabidopsis thaliana with 8 samples.

Results

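Of 22746 probe sets, 41 gave a strong signal in control shoots and almost none in control roots. They were chosen by level, with a signal of 3000 or more on both control shoot arrays and under 100 on both control root arrays; probe sets matched to a plastid gene were left out, which removed 2, those of ndhE and psbT. The values on these 4 control arrays therefore describe the choice and were not tested. The study grew Arabidopsis thaliana, ecotype WS (Wassilewskija), on vertical plates under long days and hybridised RNA of 10-day-old plants to Affymetrix arrays. There were 4 groups of 2 arrays: shoots of plants grown on half-strength MS medium with 40 µM selenate, shoots of plants grown on that medium alone (control), roots of plants grown on selenate, and roots of control plants. Whole organs were used, no transgene or mutant is named in the labels, and the labels do not give the source of the 2 arrays in each group. P-values therefore rest on a spread between arrays that may be technical.

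Leaves and cotyledons carry the chloroplasts of a seedling, and most chloroplast proteins are encoded in the nucleus and imported. The light reactions on the thylakoid membrane feed carbon fixation, whose products leave as sucrose. Selenate is taken up and assimilated by the sulfate pathway, and selenium amino acids made from it can replace cysteine and methionine in proteins.

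The platform's annotation listed 1 gene for 14 of the 41 probe sets and none for the other 27, which are unnamed here, so that neither their function nor the genome that encodes them is known here. All 14 named genes lie on nuclear chromosomes in the RefSeq annotation. Among them, 3 have a symbol. CaS (AT5G23060) encodes a calcium-sensing protein of the thylakoid membrane that takes part in stomatal closure. PIFI (AT3G15840) encodes a chloroplast protein needed for electron flow through the NDH complex. ATSPS4F (AT4G10120) encodes a sucrose phosphate synthase, which makes the precursor of sucrose. The other 11 are known by locus only. By family, AT2G42220 encodes a rhodanese-domain (sulfurtransferase-like) protein, AT2G34620 an mTERF protein of the family that acts on organelle transcripts and genomes, and AT2G29290 a short-chain dehydrogenase. AT5G48490 encodes a lipid-transfer-like protein, AT1G29670 a GDSL-type lipase, AT5G44680 a DNA glycosylase family protein and AT1G49750 a leucine-rich repeat protein. No role is given here for AT1G21500, AT2G25510, AT3G22210 and AT5G38980. The names of 3 unnamed probe sets end in _s_at, which marks probes that can bind transcripts of several genes. In bulk samples, fewer cells of a type and less RNA per cell cannot be told apart.

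At the edges of the choice, the members nearest to the shoot threshold were AT1G29670, 248377_at and AT2G34620, with a lower control shoot signal of 3009, 3026 and 3030.2. Just outside it were 261218_at, AT3G48420 and AT1G65230 at 2838, 2824 and 2824. Nearest to the root threshold were 259640_at, 261191_at and 263174_at, with a higher control root signal of 99, 98.8 and 96.6. Just outside it were 258497_at at 100, LrgB at 100.8 and ALDH11A3 at 104.

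The authors had scaled the 8 arrays, whose trimmed mean signal (2% left off at each end) was 500.04 on average. Between 13224 and 14624 probe sets had a signal of at least 100 per array. The organ labels were checked with markers fixed by locus. Of 13 root markers only 3 were on the named probe table. EXPA7, an expansin of root hairs, had signals between 8.3 and 38.7 on the shoot arrays and between 196 and 533 on the root arrays. EXPA18 lay between 3.3 and 59.6 on the shoot arrays and between 234 and 735 on the root arrays. PYK10, an abundant root beta-glucosidase, was present in both organs, between 5645 and 9465 on the shoot arrays and between 16743 and 18793 on the root arrays. The ratio of the 3' to the 5' signal, a sign of RNA integrity, differed within both shoot groups for the GAPDH control. It was 7.34 and 2.95 on selenate shoot arrays 1 and 2, and 2.03 and 10.4 on control shoot arrays 1 and 2, against 0.783 to 0.868 on the root arrays. In the same order the actin ratio was 51.7, 22.9, 21.2 and 55.9 on the shoot arrays. On the shoot arrays the ubiquitin ratio was 5.24, 6.11, 4.38 and 4.88, so it did not follow GAPDH in selenate shoots. On selenate root arrays 1 and 2 the actin ratio was 8.17 and 4.74, and on control root arrays 1 and 2 it was 9.07 and 5.42. The ubiquitin ratio on these root arrays was 2.75 and 2.185 with selenate and 2.74 and 2.12 without. Both ratios thus went with the replicate number in roots. With so few arrays, precision is limited.

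**Figure D1:**
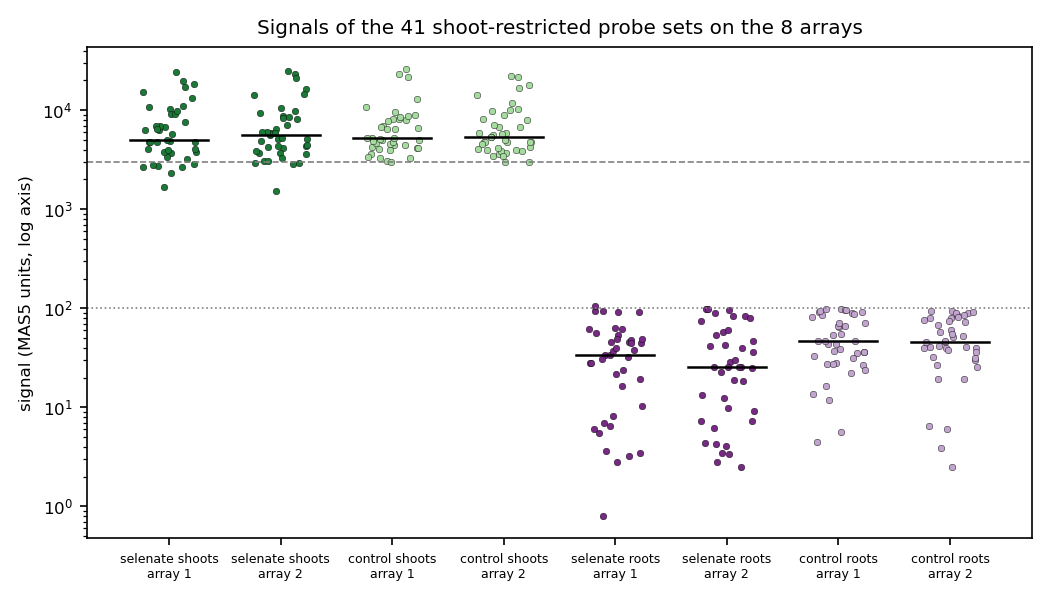
Signals of the 41 probe sets on each array (MAS5 units, log axis); each point is a probe set, bars are medians, and the dashed and dotted lines mark the thresholds of 3000 and 100 used on the control arrays. On the selenate arrays, which chose no member, shoot signals lie at 1521 or above and root signals at 105 or below.

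The selenate arrays took no part in the choice, and there the organ difference was present for every member. The 41 signals lay between 1688 and 24490.4 (median 5049) on selenate shoot array 1 and between 1521 and 24952 (median 5631) on array 2. On the selenate root arrays they lay between 0.80 and 105 (median 34.1) and between 2.5 and 99.2 (median 25.7). The organs did not overlap for any member. In limma, all 41 were higher in selenate shoots than in selenate roots, at adjusted p-values of 1.06e-06 or below. Of the 16053 probe sets tested, 25.6% were higher and 65.1% were called in either direction. Members chosen for so wide a gap between the control organs would be higher here unless selenate had removed it. This count was therefore largely set by the choice and is a description. The log2 difference, taken after adding 25 to each signal, was between 5.03 and 9.59 with a median of 6.78. CaS had signals of 15223 and 14276 in selenate shoots, against 62.2 and 74.7 in selenate roots. The difference was 7.31 ± 0.17 (log2, SE). PIFI had 6892 and 6010.2 in selenate shoots, against 30.5 and 25.7 in selenate roots, a log2 difference of 6.93 ± 0.21. Root signals this low may hold little but background, and detection calls were not used here, so these differences give no true ratio of transcript levels.

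Both thresholds were again met on the selenate arrays by 32 of the 41 probe sets. In 8 members a selenate shoot signal was under 3000, among them AT5G44680, AT3G22210, AT1G21500, AT2G29290 and AT2G34620, and ATSPS4F reached 105 on 1 selenate root array. Applied to the selenate arrays, the same rule would choose 60 probe sets, and the 32 shared ones are 78% of the present members and 53.3% of that list. Of the 28 that would be new, 18 had missed only the root threshold on the control arrays, 8 only the shoot threshold and 2 both. More of the entering probe sets had therefore crossed the root limit than the shoot limit.

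In shoots, no member passed the test for a change with selenate. Limma called 0 of the 41, against 1.86% of all probe sets tested and 1.88% of the 798 other probe sets that had 3000 or more on both control shoot arrays and 100 or more on both control root arrays. At an unadjusted p under 0.05 there were 7 members (17.1%), against 14.5% of all. The median log2 change of the members was -0.01, and that of all probe sets tested was -0.02. There were 19 positive and 22 negative changes, from -1.03 to 0.71. Both selenate arrays lay above both control arrays for 9 members and below them for another 9, which is 22% each; over all probe sets the percentages were 17.1% and 19%. With 0 calls the count lies near the background.

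The control shoot arrays also set the lower limit of the members' signals, so a chance excess there would favour negative changes. AT2G25510 came closest to a call. Its signal was 13409 and 14471 in selenate shoots, against 9039 and 7978 in control shoots, and the groups did not overlap. The log2 change was 0.71 ± 0.15 (SE; limma adjusted p = 0.0534), a 1.64-fold higher level. In roots the same probe set had 92.5 and 80.3 with selenate and 91.9 and 92.7 without, a log2 change of -0.08.

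ATSPS4F, the sucrose phosphate synthase gene, had 10782 and 9455 in selenate shoots, against 5255 and 8162 in control shoots. Both selenate arrays were above both control arrays, with a log2 change of 0.62 ± 0.21 (limma adjusted p = 0.207). Without control array 1 the change was 0.31 (adjusted p = 0.381). The thylakoid gene CaS had 15223 and 14276 in selenate shoots, against 10880.1 and 14382 in control shoots, and the groups overlapped (0.24 ± 0.17, adjusted p = 0.610). PIFI, the partner of the NDH complex, had 6892 and 6010.2 in selenate shoots, against 4081 and 5337 in control shoots. Its groups did not overlap, and its log2 change was 0.46 ± 0.21 (limma adjusted p = 0.366). Without 1 array, the change lay between 0.04 and 0.44 for CaS and between 0.27 and 0.65 for PIFI, lowest in both without control shoot array 1.

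The most negative change in shoots was that of AT5G44680, the DNA glycosylase family gene. It had 1688 and 1521 in selenate shoots, against 3049 and 3581 in control shoots, a log2 change of -1.03 ± 0.30 (limma adjusted p = 0.135). Its groups did not overlap, and with 100 added to each signal instead of 25 it was called (limma adjusted p = 0.019). The short-chain dehydrogenase gene AT2G29290 had 2672 and 2929 in selenate shoots, against 5229 and 4044 in control shoots. AT1G21500 had 2653 and 2859 in selenate shoots, against 4428 and 3989 in control shoots, and AT3G22210 had 2794 and 3089, against 4617 and 3935. In these 3 genes too both selenate arrays were below both control arrays, at log2 changes of -0.71, -0.61 and -0.53 (limma adjusted p = 0.319, 0.267 and 0.596). Among the unnamed members, 259640_at lay between AT5G44680 and these genes at -0.89 (limma adjusted p = 0.227). On the positive side, the unnamed 261191_at had 0.49 (limma adjusted p = 0.158). The groups did not overlap in either. AT2G34620, of the mTERF family, had 2307 and 3326 in selenate shoots, against 5218 and 3030.2 in control shoots, and its groups overlapped. AT5G48490, AT5G38980, AT1G29670, AT1G49750 and AT2G42220 had log2 changes between -0.13 and 0.25.

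**Figure D2:**
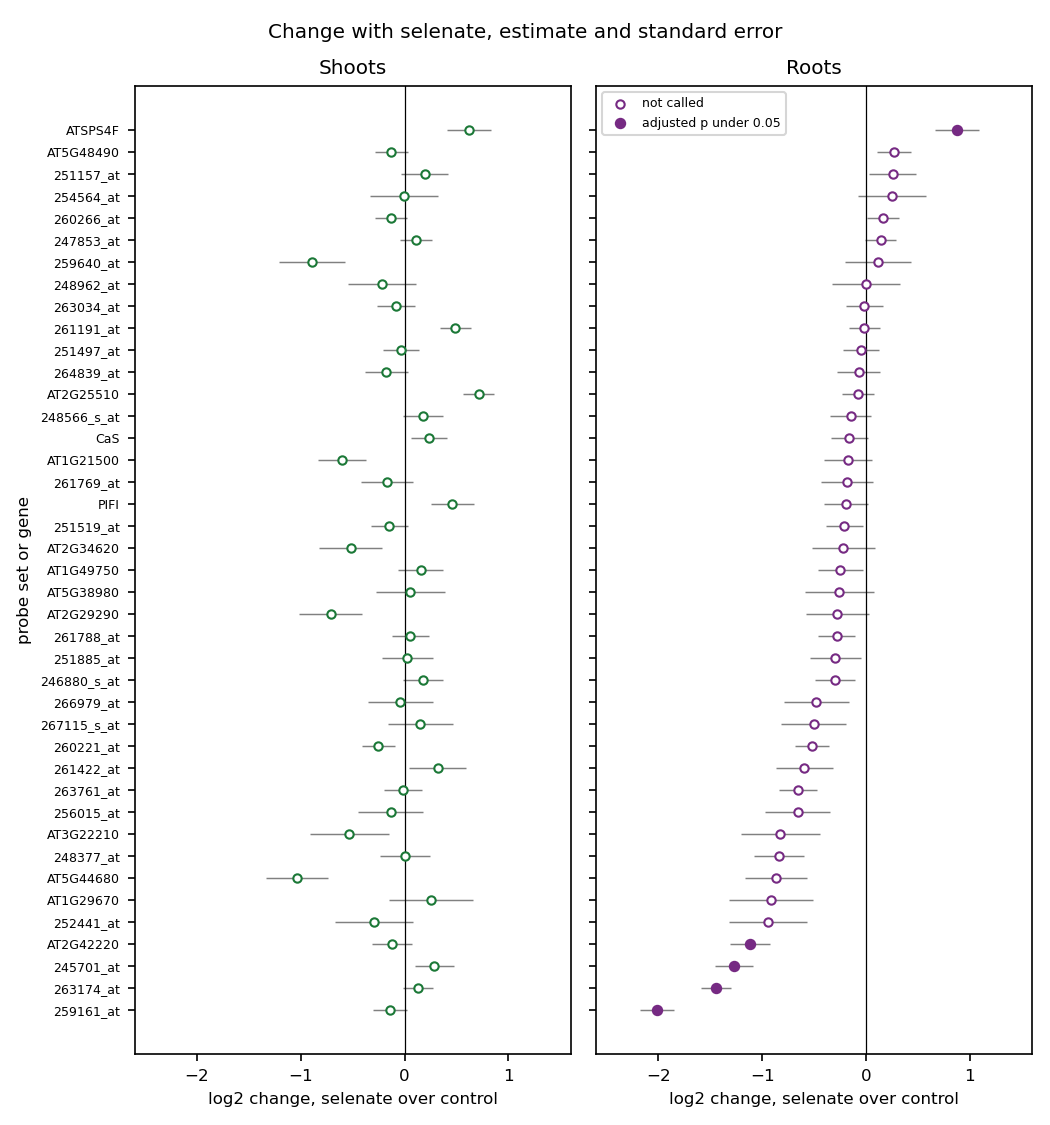
Log2 change with selenate (selenate over control, after adding 25 to each signal) of the 41 members in shoots (left) and roots (right), with standard errors from limma; filled points have an adjusted p under 0.05. No point is filled in shoots, while in roots 4 are filled on the negative side and ATSPS4F on the positive side.

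The 0 calls in shoots did not hold in every setting. With all 8 arrays and an added 100, limma called AT5G44680 (adjusted p = 0.019) and AT2G25510 (adjusted p = 0.0389), where 2.04% of all probe sets were called. The fits that follow left 1 array in a shoot group, and more of all probe sets were called than the 1.86% above. Their few calls are therefore not read as a result about the members. Without control shoot array 1, limma called AT2G25510 (log2 change 0.80, adjusted p = 0.0440) and the unnamed 259640_at (-1.37, adjusted p = 0.0391), with 2.5% of all probe sets called. Without control shoot array 2 it called ATSPS4F (0.94, adjusted p = 0.0241), with 3.93% called. Without both arrays of high GAPDH ratio, control 2 and selenate 1, it again called ATSPS4F (0.84, adjusted p = 0.0458), where 4.64% of all were called. The fit shares 1 spread between the organs, whereas the members' median absolute log2 difference between replicates was 0.18 in selenate shoots, 0.29 in control shoots, 0.21 in selenate roots and 0.16 in control roots.

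Within shoots, many members differed between arrays in step with the GAPDH ratio. For 36 of the 41 (87.8%), the array with the low ratio differed from the array with the high ratio in the same direction in selenate shoots and in control shoots. The percentage was 83.5% of the 798 other probe sets abundant in control shoots and 70% of all probe sets tested. Both low-ratio arrays lay above both high-ratio arrays for 12 members, or 29.3%, against 30.3% of the 798 and 21.2% of all tested. Both lay below for 9, or 22%, against 29.9% of the 798 and 26.6% of all tested. The unnamed 252441_at was chosen after its values were seen as an example of the first kind, with 2707 and 5718 on selenate shoot arrays 1 and 2, against 6695 and 3480 on control shoot arrays 1 and 2. The part of RNA integrity in these differences was not tested.

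**Figure D3:**
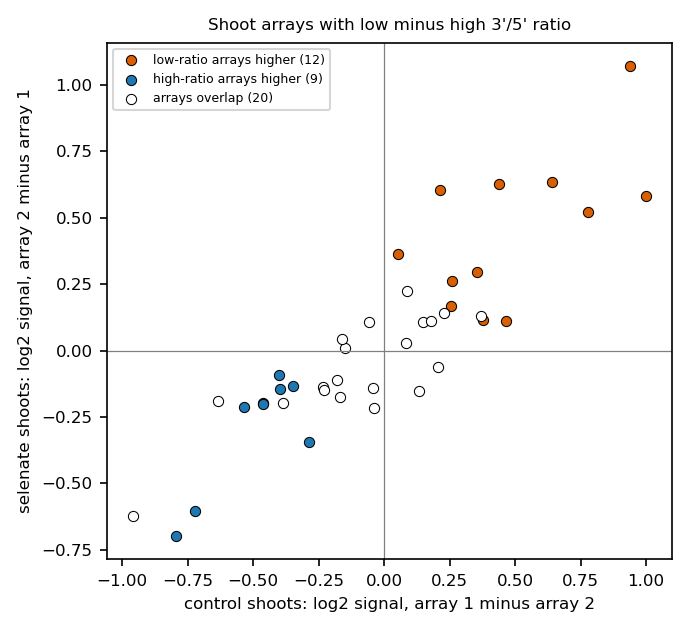
Each point is a member; the horizontal axis is the log2 signal of control shoot array 1 minus array 2 and the vertical axis that of selenate shoot array 2 minus array 1, in both cases the array of low minus the array of high GAPDH 3' to 5' ratio. Of the 41 points, 36 have the same sign on both axes, and colours mark the 12 and the 9 members whose low-ratio and high-ratio arrays do not overlap.

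In roots, 5 members passed the test, on signals near background. Every member had passed the filter on low values through the shoots, and the control root arrays had also been used to choose the members, so these counts are a description. Limma called 4 lower and 1 higher with selenate. That is 12.2% of the 41, where 5.71% of all probe sets were called, 2.37% as lower and 3.35% as higher. With the replicate number as a block within organ, 259161_at and 263174_at alone were still called in roots. The median log2 change of the members was -0.24, and that of all probe sets tested was -0.02. Changes were negative for 33 members and positive for 8, between -2.01 and 0.88. Both selenate root arrays were below both control arrays for 16 members (39%) and above them for 4 (9.76%), against 29.9% and 23.6% of all tested. Of the 3 root markers, EXPA7 was lower with selenate (195.8 and 220.5 in selenate roots, against 532.6 and 459.5 in control roots, log2 change -1.16, limma adjusted p = 0.0138). EXPA18 had 261.9 and 234.5 in selenate roots, against 735.1 and 603.5 in control roots (-1.34, adjusted p = 0.178), and PYK10 had a log2 change of 0.08 (adjusted p = 0.960). Their part in the members' root changes was not tested.

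The members were chosen for a low control root signal, so a chance deficit there would favour positive changes. Beside them stand the 819 other probe sets that were also under 100 on both control root arrays and had at least 100 on all shoot arrays. Their median log2 change in roots was 0.07, with 328 negative and 491 positive, and 1.22% were called lower. Both selenate root arrays were below both control arrays for 14.8% of them. Of the 798 probe sets abundant in control shoots that had measurable root signals, 8.27% were called lower in roots and 41.9% had both selenate arrays below both control arrays. The 819 share the members' upper limit in control roots, but they were not matched on root level below it or on shoot level. The part of the choice in the root changes and the difference between these sets were not tested.

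**Figure D4:**
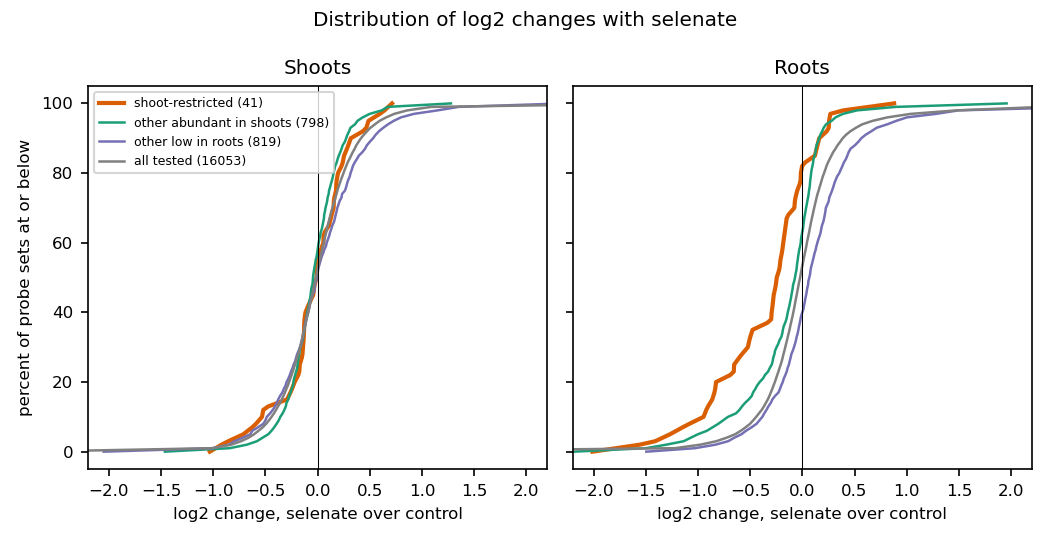
Cumulative distributions of the log2 change with selenate in shoots (left) and roots (right) for the 41 members, the 798 other probe sets abundant in control shoots, the 819 other probe sets low in control roots and all 16053 tested. In shoots the member and overall medians were close, at -0.01 and -0.02, and the curves part in the tails. There the percentile 90 was 0.27 for the 798, 0.41 for all tested and 0.53 for the 819. In roots the curve of the members lies to the left, with a median of -0.24.

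The unnamed probe set 259161_at had signals of 3.2 and 2.5 in selenate roots, against 89.6 and 84.8 in control roots. The log2 change was -2.01 ± 0.16 (SE; limma adjusted p = 9.16e-05). In shoots it had 19593 and 23492 with selenate and 25886 and 21609.9 without, and the groups overlapped. The unnamed 263174_at had 16.6 and 19.0 in selenate roots against 96.6 and 86.6 in control roots, a log2 change of -1.45 ± 0.14 (adjusted p = 0.000278). Its shoot signals were 24490.4 and 24952 with selenate and 23242 and 21957 without, and these groups did not overlap (0.13, limma adjusted p = 0.765). The unnamed 245701_at had 21.6 and 9.9 in selenate roots against 64.8 and 79.9 in control roots, a log2 change of -1.27 ± 0.18 (adjusted p = 0.00302). Its shoot signals were 10373 and 10428 with selenate and 8086 and 8968 without, again without overlap (0.29, limma adjusted p = 0.541). The rule for naming allowed only 2 unnamed probe sets in each direction, and 245701_at was added after its values were seen.

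AT2G42220, the rhodanese-domain gene, fell in roots. Its signal was 23.9 and 30.4 in selenate roots, against 95.1 and 80.9 in control roots, a log2 change of -1.12 ± 0.19 (limma adjusted p = 0.00812). In shoots it had 9919 and 8616 with selenate and 8544 and 11768 without, and the groups overlapped (-0.12, adjusted p = 0.857). The call in roots ended without any single root array: the adjusted p was 0.105 without control 1, 0.0535 without control 2, 0.0962 without selenate 1 and 0.0579 without selenate 2.

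ATSPS4F was the member that rose in roots. It had 105 and 99.2 in selenate roots, against 47.2 and 40.9 in control roots, a log2 change of 0.88 ± 0.21 (limma adjusted p = 0.0438). Its changes in shoots and roots had the same sign, and their difference was -0.26 ± 0.30 (shoots minus roots, adjusted p = 0.768). The root call was lost without root control 1 (adjusted p = 0.196), root control 2 (0.295), root selenate 1 (0.256), root selenate 2 (0.231), shoot selenate 1 (0.0651) or shoot selenate 2 (0.0650).

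**Figure D5:**
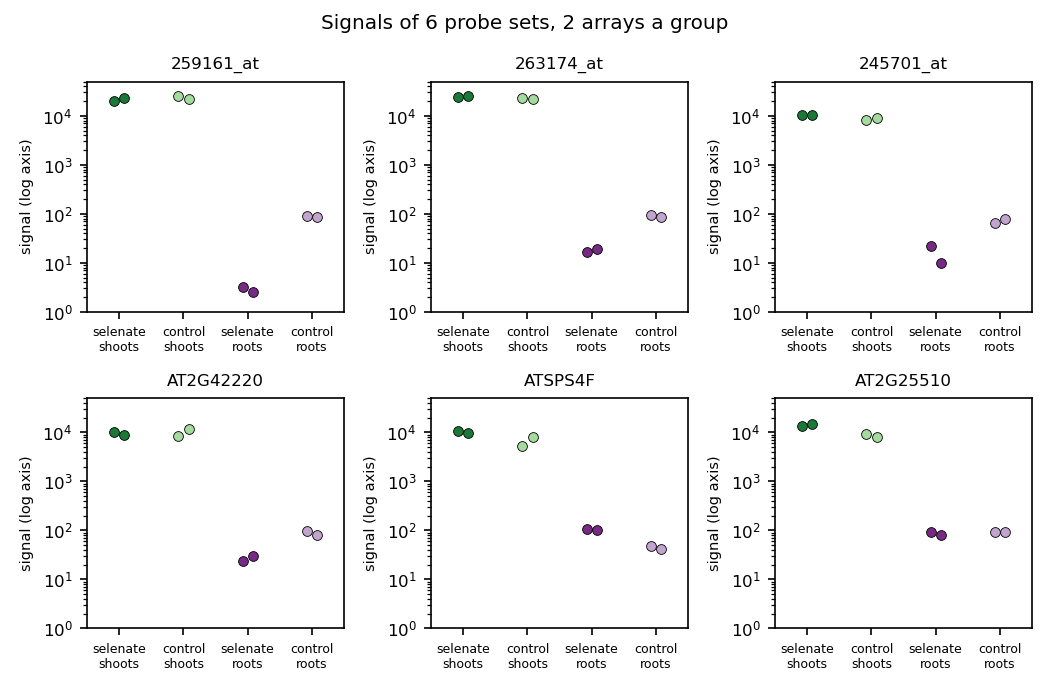
Signals (log axis) of the 5 members called in roots and of AT2G25510, 2 arrays a group, in selenate shoots, control shoots, selenate roots and control roots. In the first 4 panels the selenate root points lie below the control root points, while the shoot points lie close together. For 263174_at and 245701_at both selenate shoot points lie above both control shoot points.

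Because these signals lie near the added 25, the size of each root change depends on that number. With an added 5, the log2 changes were -3.55 for 259161_at, -2.08 for 263174_at, -1.95 for 245701_at and -1.54 for AT2G42220. With an added 100 they were -0.86, -0.70, -0.57 and -0.56, and AT2G42220 was no longer called (limma adjusted p = 0.107). On the selenate root arrays, 24 and 29 of the 41 members had a signal below the array's own 25th percentile, against 18 and 22 on the control root arrays; these percentiles were 44.4 and 51.3 on the selenate and 41.9 and 47.3 on the control root arrays. Many members thus lay among the lowest signals of each root array.

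For 3 members the responses of the organs were called different. The control arrays that chose the members enter that test, so this count too is a description. Limma's test of the shoot change minus the root change called 259161_at (1.87 ± 0.23, adjusted p = 0.00226), 263174_at (1.58 ± 0.20, adjusted p = 0.00278) and 245701_at (1.55 ± 0.26, adjusted p = 0.0111), all higher in shoots than in roots, where 1.42% of all probe sets tested were called in that direction and 3.7% in either. With the replicate number as a block within organ, none of the 3 differences was called, and that of 263174_at was called in 20 of 21 fits. The difference of 259161_at was not called with an added 100 (0.72, adjusted p = 0.117). That of 245701_at was not called without root control 2 (1.44, adjusted p = 0.0746) or root selenate 2 (1.35, adjusted p = 0.0641). For AT2G42220 the difference was 1.00 ± 0.27 (adjusted p = 0.0954), so that its fall in roots was not shown to differ from its shoot value.

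Other genes of green tissue, taken from 10 lists by locus of photosystem, antenna, electron transport, carbon fixation, photorespiration, pigment, redox and plastid ribosome genes, were set beside the members. Of 146 entries 27 were on the named probe table, all were tested, and CaS was the member among them. In shoots, 0 of the 27 were called with selenate by limma, where 1.86% of all probe sets were called, with log2 changes between -0.42 and 0.33 and a median of -0.04. In roots 9 were lower and 0 higher, where 2.37% and 3.35% of all were called, with a median of -0.52. LHCB4.2, an antenna protein of photosystem II, had a mean signal of 23.7 in selenate roots and 146 in control roots, a log2 change of -1.82 (limma adjusted p = 0.000106). PORB, which makes chlorophyllide in the light, had means of 26.8 in selenate roots and 121 in control roots, a log2 change of -1.55 (adjusted p = 0.00673). The others called lower in roots were PSAE-1, PSBW, LHCB4.1, ATPC1, CHLM, the glycerate kinase gene AT1G80380 and the geranylgeranyl reductase gene AT1G74470, with log2 changes between -0.69 and -1.12. CaS had 62.2 and 74.7 in selenate roots, against 81.8 and 76.5 in control roots, a log2 change of -0.16 (adjusted p = 0.826). These lists and the members were chosen with earlier results of these data known. No gene of the lists for glucosinolate breakdown, lipid transfer and cuticle, or plastid ribosomal proteins could be matched, and the clock gene GI was not called in either organ.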

How the data were processed

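Transcript levels were measured in 8 samples on 1-colour Affymetrix arrays. The deposited values are signals, an intensity on a linear scale made with MAS5 per the submitters' processing notes, of no stated version. MAS5 corrects each probe by its mismatch partner, array by array, which leaves low signals imprecise. Groups came from the sample titles; the description fields of the shoot samples mention roots. No batch is given in the labels.

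Of 22810 probe sets, 64 controls were left out, and 16053 with a signal of at least 100 on at least 2 arrays were tested. All 41 members passed, through the control shoots that chose them. Log2 values were taken after adding 25, 5% of the scaled mean, which compresses the fold changes of low signals. Limma 3.58.1 in R 4.3.3 was fitted to all 8 arrays with 1 mean per group, a variance trend and 4 residual degrees of freedom. A probe set was called at an adjusted p under 0.05 (Benjamini-Hochberg over the whole tested table). The procedure was run on simulated data with independent arrays and normal noise, only as a check that it worked. This check lends no support to the counts above.

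Gene names came from the platform annotation, updated through RefSeq (TAIR10.1). Named members were the matched genes with a symbol or locus, members of the lists, those called with selenate, and those at the thresholds. The members and lists were chosen with earlier results of these data known. Of 14 lists with 185 entries, the root markers, clock and 10 green-tissue lists are given above. Alternatives were other pseudocounts, filters, normalizations, thresholds, variance models, a replicate block and arrays left out.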

Additional observations from a re-analysis of the deposited data

Results flagged for a closer look

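The selenate responses of 3 unnamed members were called different between the organs by limma's interaction term. The control arrays in that term had also chosen the members. With the replicate number as a block within organ, none of the 3 was called. The difference, shoots minus roots, was 1.87 (log2) for 259161_at, 1.58 for 263174_at and 1.55 for 245701_at. In each of them both selenate root arrays were below both control root arrays, at root signals under 100. No group was large enough for a check on single outlying arrays.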

How the results depend on the processing

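Without 1 array at a time, limma called between 3 and 6 members in roots, 0 to 2 in shoots, 2 to 5 for the difference between organs and 41 each time as higher in selenate shoots than in selenate roots. In roots it called 9 with an added 5 (4.79% of all probe sets were called), 3 with an added 100 (7.21%), 11 with array weights (13.7%) and 8 without both shoot arrays of high ratio (12.8%). In shoots it called 2 with an added 100 (2.04% of all) and 1 without both high-ratio arrays (4.64%). Replicate numbers were not taken as pairs, as the labels do not say what same-numbered arrays share. Deviations of same-numbered arrays correlated at 0.34 in roots and -0.48 in shoots. In roots the actin and ubiquitin ratios also went with the replicate number. Whether same-numbered root arrays belong together was not tested. With the replicate number as a block within organ, 2 members were called in roots (2.72% of all), 0 in shoots (0% of all) and 0 for the difference (0.928%). With the shoot numbers crossed, a setting chosen after seeing the data, 12 were called in roots (11.7% of all), 5 in shoots (9.83%) and 9 for the difference (11.9%). Lists at other thresholds were again chosen for a gap between the control organs. Among 16 members at thresholds of 5000 and 100, all 16 were higher in selenate shoots. At 3000 and 50, 19 of 19 were, with 1 called in roots and 0 for the difference. At 2000 and 150, 103 of 103 were, with 12 called in roots and 7 for the difference. The falls of 259161_at and 263174_at in roots were called in 22 of 22 fits, that of 245701_at in 21, that of AT2G42220 in 16 and the rise of ATSPS4F in 10; their adjusted p-values in limma reached 0.0106, 0.0168, 0.0540, 0.107 and 0.295. The median root change of the members lay between -0.36 and -0.24 without 1 array, and was -0.37 with an added 5 and -0.11 with an added 100. Keeping the plastid-matched probe sets would make 43 members. Among the results and settings run, no named change reversed its direction; a fit of only the arrays compared was not possible for the difference between organs. The 2 arrays a group and root signals near background limit every value.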
